A study of Mus musculus with 13 samples.

Results

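Haematopoietic stem cells (HSCs), which sit in the bone marrow and give rise to the blood lineages, were compared between wild-type (WT) mice and mice whose HSCs lack MEK1 (KO), all after 5-fluorouracil (5-FU). The comparison holds 7 of the 13 libraries of the study, chosen by their labels: 3 KO libraries (A5, A6 and A8) and 4 WT libraries (A2, A3, A4 and D4). Each library is polyadenylated RNA of 100 cells sorted from mouse bone marrow, amplified with Smart-seq2, a method that makes full-length cDNA from few cells. The labels give the genotype as KO or WT and the treatment as 5FU. Not given in the sources used here are the way the deletion was made, the strain and age of the mice, and the dose and timing of 5-FU. The other 6 libraries, 3 KO and 3 WT from untreated mice, are set beside the results where they bear on them. By its title, the study concerns a feedback through ERK that protects HSCs from being exhausted.

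MEK1 (gene Map2k1) and its close relative MEK2 (Map2k2) are the kinases that switch on ERK1 and ERK2 at the end of the RAS, RAF, MEK and ERK relay, which carries signals from growth factor and cytokine receptors. Active ERK raises transcripts of its own inhibitors, such as dual-specificity phosphatases, so the relay restrains itself. 5-FU blocks thymidylate synthesis and enters RNA, kills dividing blood cells, and drives the mostly resting HSCs into division.

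Values below are normalized counts, that is reads per gene divided by the library's size factor, recovered from the authors' deposited log2-scale values. For each gene the 3 KO values are in the order A5, A6, A8 and the 4 WT values in the order A2, A3, A4, D4. A log2 difference is KO minus WT on the deposited variance-stabilized scale, on which genes with few reads show too small a change. Fold changes are ratios of mean normalized counts. A gene was called when limma's moderated test gave a Benjamini-Hochberg adjusted p below 0.05 over all 12846 genes tested. Rose and fell mean called higher and called lower in KO than in WT.

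The 7 libraries held 11416753 to 25380570 reads. WT A3 and WT D4 were nearly copies of each other, with a Pearson correlation across genes of 0.988, although their labels give other years and flowcells. The 3 pairs of KO libraries correlated at 0.966 to 0.977, and the other same-group pairs of the series at 0.912 to 0.943. The labels do not state whether the libraries of a group are separate mice, and p-values therefore rest on a library spread that may be technical. Genes with at least 1 read numbered 12456 to 12615 in KO and 12093 to 12265 in WT (exact two-sided permutation p = 0.0286, the smallest that 3 against 4 allows; 12421 to 12589 against 12076 to 12196 after thinning to equal depth; p = 0.1 with A3 and D4 averaged, the smallest that 3 against 3 allows). Ribosomal protein genes took 8.24% to 8.86% of the reads in KO and 9.22% to 11.0% in WT, without overlap (exact two-sided permutation p = 0.0571, and 0.1 with the pair averaged). Of 6 tested genes listed for RNA quality and stress of preparation, Gapdh and Jun rose and B2m fell (median log2 0.37), against 10.9% of all genes called either way. The labelled cell type was checked on stem cell markers: Kit gave 1572, 1606 and 1428 in KO and 3521, 4121, 5161 and 4496 in WT, and Ly6a (Sca-1) 903, 795 and 680.3 in KO and 981, 855, 968 and 912 in WT. Both were read in each library, as was Hlf, a stem cell factor (1181, 725 and 609 in KO and 496, 493, 1052 and 416 in WT). Not every marker did so: Procr, another sorting marker described below, was scarcely read in WT A2. Summed over the 42 tested HSC genes, counts were 37544 to 38423 in KO and 54828 to 67900 in WT. The same sums were 77955 to 89943 in untreated KO and 84738 to 92605 in untreated WT. The part of these library properties in the results below was not tested. In RNA of pooled cells, fewer cells of a type and less RNA per cell cannot be told apart.

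Map2k1, the deleted gene (ENSMUSG00000004936; GRCm38 chromosome 9, positions 64185770 to 64253631, minus strand), was lower on average in KO and still read in each KO library. Its counts were 328, 459.9 and 304 in KO and 604, 1634, 584 and 1573 in WT. The 2 WT libraries A2 and A4 lay near the KO range, and A3 and D4, the near copies, lay above them. The groups did not overlap. The difference was called with all libraries (log2 -0.96, limma adjusted p = 0.0339) and not with A3 and D4 averaged (limma adjusted p = 0.11), and its exact permutation p (two-sided) was 0.0857. Exons left in a deleted allele would still yield reads, and no exon was looked at singly.

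Of the 25 tested genes of the RAS, RAF, MEK and ERK relay, Map2k1 and Rasgrp2 fell and 23 did not pass. Over all genes tested 5.5% fell. Rasgrp2, an exchange factor that loads Rap and Ras proteins with GTP, gave 309, 204 and 421 in KO and 625, 1388, 979 and 1491 in WT (log2 -1.17, limma adjusted p = 0.0116). The Map2k1 call was lost without KO A5, A6 or A8 and without WT A3 or D4, and the Rasgrp2 call was lost without KO A6 (limma adjusted p = 0.0728). Map2k2 gave 1259, 1395 and 1583 in KO and 611, 1165, 929 and 1296 in WT (log2 0.41, limma adjusted p = 0.206). Pebp1, encoding the RAF kinase inhibitor protein, gave 12128, 11416 and 13570.0 in KO and 10261, 9290.2, 8841 and 9998 in WT (log2 0.35, limma adjusted p = 0.0673). Of the 72 genes tested within 5 Mb of Map2k1 on either side, 7 were called (9.722%), a share close to that of all genes.

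Between KO and WT after 5-FU, 1395 of 12846 genes differed, 10.9% of those tested. They split into 689 higher (5.36%) and 706 lower (5.5%) in KO, and 402 of them differed at least 2-fold on the deposited scale. With A3 and D4 averaged into 1 replicate 913 genes were called, and 900 of these were among the 1395. The count was 756, 694 and 793 without KO A5, A6 and A8, and 890 and 876 without WT A3 and D4. A stricter set of 536 genes (4.17% of those tested; 252 higher and 284 lower) was called with all libraries, with the pair averaged, and without each of the 7 libraries in turn, and had no overlap between KO and WT. Such genes are said below to hold in every repeat. No overlap alone was seen in 3466 genes, 27% of those tested. Where it is given below for genes that hold in every repeat, it follows from how they were chosen.

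**Figure D1:**
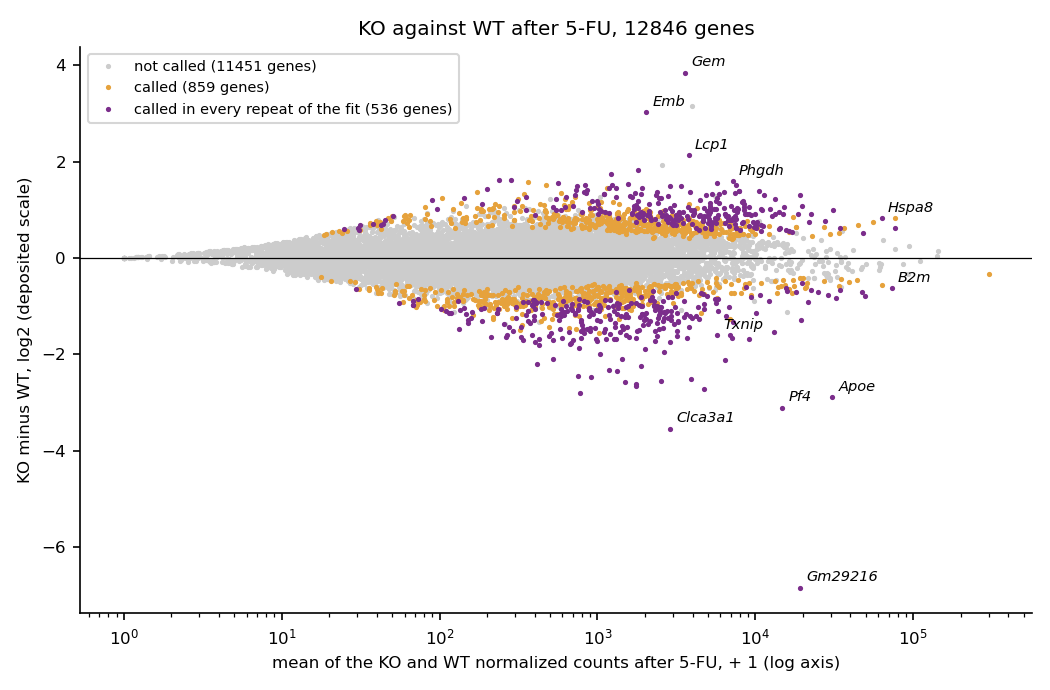
Each point is 1 of the 12846 genes tested: its mean normalized count after 5-FU on a log axis against its log2 difference, KO minus WT. Grey genes were not called, orange genes were called, and the 536 purple genes were called in every repeat of the fit; Gem, Emb and Lcp1 lie highest and Gm29216 lowest among the purple genes.

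None of the 1395 genes was called between the genotypes in untreated cells in limma, none with limma-voom on the recovered reads, and 149 (10.68%) had an unadjusted limma p below 0.05 there. Over all 12846 genes the untreated comparison called 4 in limma and 0 with limma-voom, and 1291 (10.05%) had an unadjusted limma p below 0.05. The genotype difference after 5-FU differed from the untreated one in 365 genes (2.84% of those tested; limma interaction test), 134 with a more positive and 231 with a more negative difference after 5-FU. Of the 1395 genes, 314 passed this test, each with the sign of its difference after 5-FU. That match of sign is largely set by the choice of genes called after 5-FU, since the interaction contains the same difference. With A3 and D4 averaged, 237 genes passed the interaction test.

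**Figure D2:**
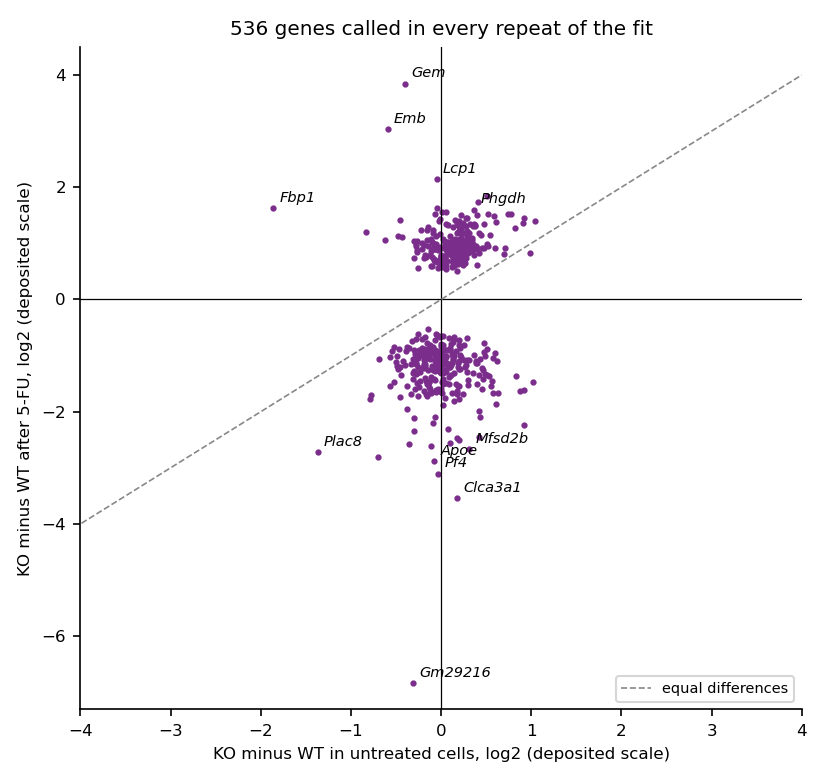
The 536 genes that hold in every repeat: the log2 difference between KO and WT in untreated cells (horizontal) against that after 5-FU (vertical, the axis on which they were chosen). The points lie away from 0 after 5-FU by the way they were chosen, and within 2 log2 units of 0 in untreated cells; Fbp1 and Plac8 lie farthest to the left.

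Among the 689 higher genes the KO mean was above both untreated means in 626 and the WT mean was below both in 485. Both held in 426 genes, the first alone in 200 and the second alone in 59. Among the 706 lower genes the KO mean was below both untreated means in 591 and the WT mean above both in 538, where both held in 423, the first alone in 168 and the second alone in 115. The untreated libraries were acquired in 2015 and those after 5-FU in 2016, except WT D4, so year and treatment cannot be told apart in these positions. The genes were chosen for a difference between KO and WT, which by itself favours such positions, here and in the lists below. The same positions were not counted over all genes tested.

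Gene lists for pathways and cell types were read by their counts and median, beside the same over all genes tested (5.36% higher, 5.5% lower, median log2 -0.02). The lists with the largest shares higher in KO were the proteasome (27 of 37), chaperones (20 of 29), serine and one-carbon folate (13 of 19) and oxidative phosphorylation (25 of 47). Those with the largest shares lower were megakaryocyte and platelet (22 of 27), erythroid (10 of 20) and neutrophil (5 of 11) genes.

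**Figure D3:**
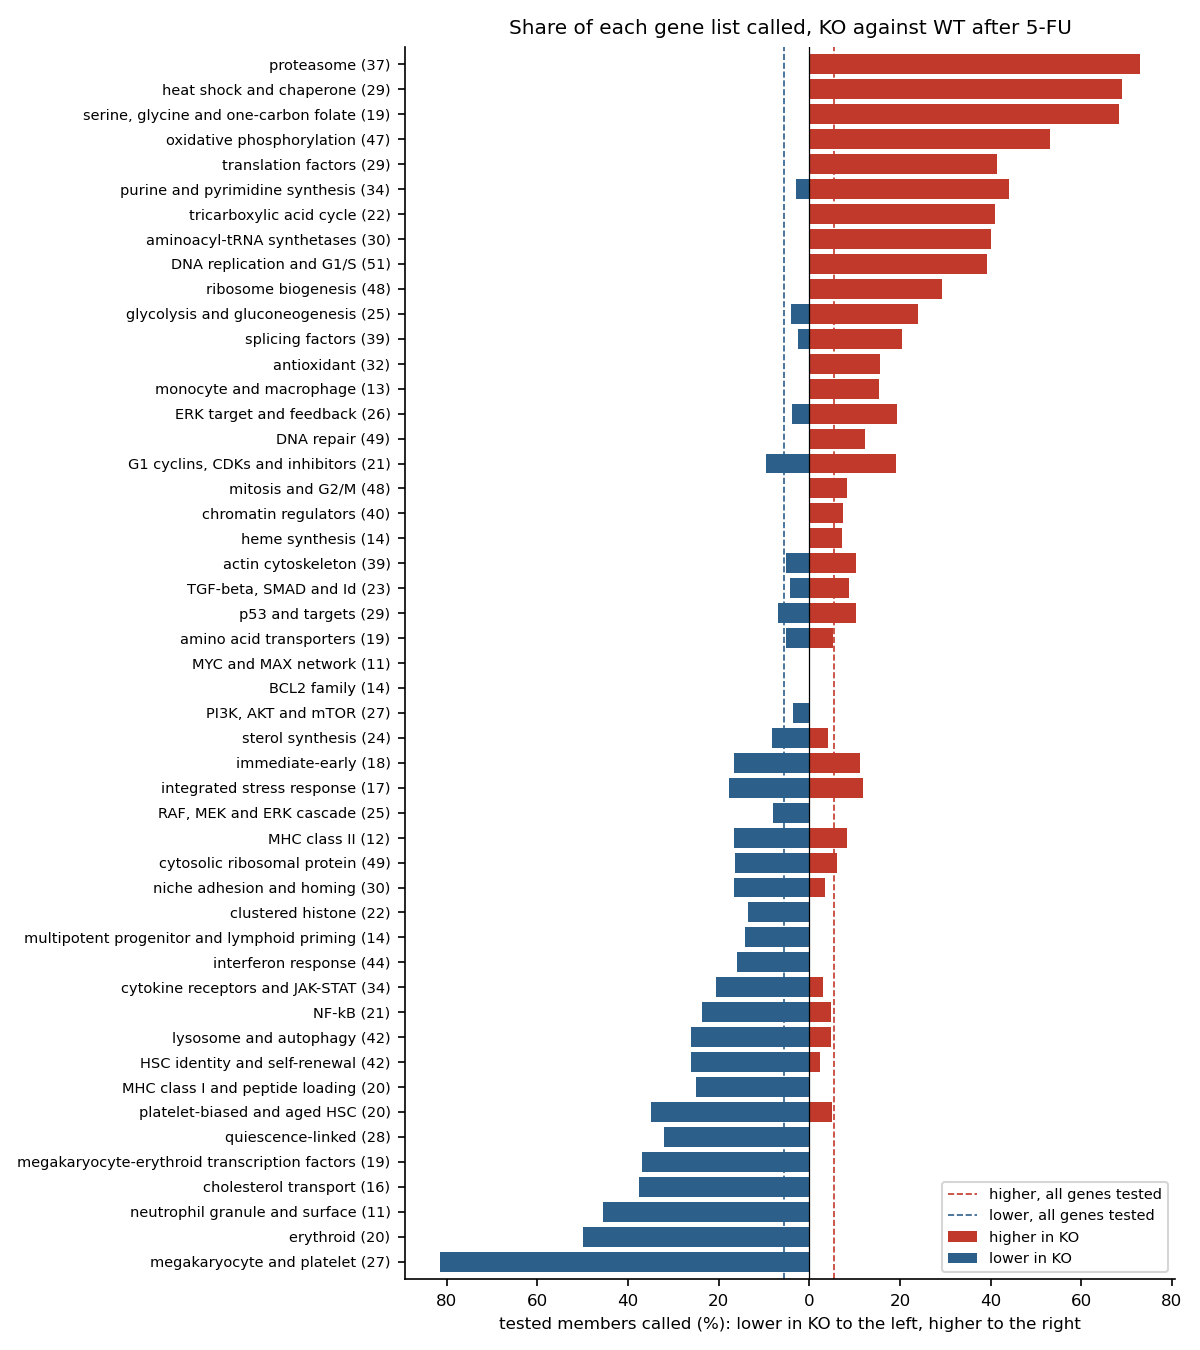
Share of the tested members of each list (number tested in brackets) called higher in KO (red, to the right) and lower in KO (blue, to the left), with the shares over all genes tested as dashed lines. The proteasome list is highest at 27 of 37 members and the megakaryocyte and platelet list lowest at 22 of 27.

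Promoter sequences of 4 members show the motifs that were searched in these gene groups. Windows run from 250 bases before to 50 after the gene's start, from RefSeq on build GRCm38.p6, and 9504 of 12716 tested genes with a symbol had one. The motifs searched on both strands were those of E2F (TTTGGCGC or TTTCCCGC) and ETS factors (CCGGAAGT), the letters AGATAA bound by GATA factors, the E-box (CACGTG) and the NF-Y box (CCAAT), and none of them contains another. The printed gene is the member with the smallest p that holds in every repeat and has the motif, in lists chosen after the shares were seen. Capitals mark the motif.
Hells (replication list, E2F, chr19:38930740-38931039, plus strand): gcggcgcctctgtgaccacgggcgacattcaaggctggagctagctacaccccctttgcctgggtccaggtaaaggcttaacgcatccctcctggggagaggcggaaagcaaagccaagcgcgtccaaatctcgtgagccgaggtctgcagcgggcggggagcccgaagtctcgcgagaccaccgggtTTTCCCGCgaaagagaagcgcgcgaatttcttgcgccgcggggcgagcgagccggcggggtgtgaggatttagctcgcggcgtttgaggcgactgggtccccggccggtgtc
Pf4 (megakaryocyte list, GATA, chr5:90772185-90772484, plus strand): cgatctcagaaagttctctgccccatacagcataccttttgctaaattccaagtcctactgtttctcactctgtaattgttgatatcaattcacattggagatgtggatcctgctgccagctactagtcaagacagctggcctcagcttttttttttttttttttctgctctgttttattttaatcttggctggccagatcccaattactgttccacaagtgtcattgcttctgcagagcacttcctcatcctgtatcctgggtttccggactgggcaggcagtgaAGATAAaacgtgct
Psmd6 (proteasome list, ETS, chr14:14120896-14121195, minus strand): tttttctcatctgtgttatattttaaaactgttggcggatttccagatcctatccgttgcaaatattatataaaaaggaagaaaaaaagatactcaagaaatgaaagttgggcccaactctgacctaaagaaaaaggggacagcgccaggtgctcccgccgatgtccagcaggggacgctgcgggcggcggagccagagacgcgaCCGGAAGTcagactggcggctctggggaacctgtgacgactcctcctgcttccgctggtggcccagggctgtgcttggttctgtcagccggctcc
Nme1 (nucleotide list, E-box, chr11:93967976-93968275, minus strand): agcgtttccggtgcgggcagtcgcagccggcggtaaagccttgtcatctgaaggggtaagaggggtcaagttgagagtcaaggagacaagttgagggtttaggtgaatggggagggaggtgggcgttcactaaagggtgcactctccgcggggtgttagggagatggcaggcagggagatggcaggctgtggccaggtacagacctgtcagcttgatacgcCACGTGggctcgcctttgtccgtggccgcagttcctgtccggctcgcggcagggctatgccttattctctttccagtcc
The motif starts 62 bases before the gene's start in Hells, 45 before in Psmd6, 29 before in Nme1 and 36 after in Pf4. The E2F letters were in 14 of 51 windows of the replication list (27.5%), against 2.91% of windows of all genes tested. The ETS letters were in 10 of 34 windows of the proteasome list (29.4%) and 12 of 45 of the ribosome biogenesis list (26.7%), against 8.18%. They were also in 9 of 44 windows (20.45%) of the cytosolic ribosomal protein list, whose calls were mostly lower. GATA letters were in 4 of 21 windows of the megakaryocyte list (19.05%), against 6.61%, and the E-box was in 8 of 49 windows of the nucleotide list (16.3%), against 10.02%. Larger GATA shares than in the megakaryocyte list were seen in MHC class II genes (3 of 10 windows, 30%) and mast cell and basophil genes (2 of 8, 25%), among others. Some other lists had larger E-box shares. They include translation factors, called higher (8 of 29 windows, 27.6%), and lysosome and autophagy genes, called mostly lower (12 of 37, 32.4%). Over called genes as a whole the shares were 3.24% and 1.55% for E2F, 6.81% and 8.01% for GATA, 10.2% and 4.35% for ETS, 13.5% and 9.13% for the E-box and 39.7% and 39.3% for the NF-Y box, higher genes first and lower genes second. These are matches of letters, with no test, and several genes have more than 1 window.

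Proteasome transcripts were higher in KO: 27 of 37 tested members rose, 10 did not pass, and the median log2 difference was 0.61. The proteasome degrades ubiquitin-tagged proteins in a barrel, the 20S core, that is fed by the 19S regulatory particle. Of the 14 tested core subunits 13 rose, and of the 17 regulatory subunits 12 rose. Psmd6, a regulatory subunit whose promoter is printed above, gave 6673, 5894 and 7227 in KO and 3127, 3868, 3238 and 3405 in WT (log2 0.88, limma adjusted p = 0.000381). Psmd14, the subunit that removes ubiquitin, gave 8737, 7924 and 9889 in KO and 5581, 4504, 4657 and 3811 in WT (1.91-fold higher). Psma5, a core subunit, gave 11616, 12525 and 13469 in KO and 8244, 7713, 7236 and 7475 in WT (1.64-fold higher). In each of the 3 genes every KO library lay above every WT library, by less than 2-fold in the means. Of the 27 genes, 13 hold in every repeat, and the count was 15 to 25 when single libraries were left out, moved by over 1.5 times without KO A5, A6 or A8. The untreated means of Psmd6 were 4095 in KO and 3957 in WT.

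Chaperone transcripts were higher as well, with 20 of 29 tested members up, 9 not passing and a median log2 difference of 0.65. All 4 tested members of the HSP90 family rose, as did 7 of 8 subunits of CCT, the ring that folds actin and tubulin, and both parts of the mitochondrial chaperonin, Hspd1 and Hspe1. Hspd1, encoding HSP60, gave 7625, 8668 and 11514 in KO and 3746, 3154, 3455 and 2887 in WT (2.80-fold higher; log2 1.37, limma adjusted p = 4.24e-05). Tcp1, the CCT alpha subunit, gave 15227, 15969 and 17445 in KO and 6972, 6579.8, 6156 and 5594 in WT (2.56-fold higher). Hsp90aa1, the inducible HSP90, gave 19048, 18779 and 18137 in KO and 7684, 8851, 6709 and 8095 in WT (2.38-fold higher). The 2 groups were separate in these genes, the lowest KO library lying above the highest WT library. Summed over the list, normalized counts were 294110 to 370380 in KO and 161670 to 202040 in WT. The interaction test passed in 7 members, with Hspd1 among them (log2 1.20, limma adjusted p = 0.0116). Of the 20 genes 12 hold in every repeat, and 13 were called without KO A8.

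Genes of the respiratory chain encoded in the nucleus were higher in KO, and those encoded in the mitochondria were called in 2 of 13 cases. Of 47 nuclear oxidative phosphorylation genes 25 rose, 22 did not pass, and the median was 0.50. The calls were 8 of 17 in complex I, 2 of 4 in complex II, 5 of 7 in complex III with cytochrome c, 4 of 8 in complex IV and 6 of 11 in ATP synthase. Cycs, encoding cytochrome c, gave 2447, 2279 and 2619.8 in KO and 1097, 949, 749 and 1117 in WT (2.50-fold higher; log2 1.08, limma adjusted p = 0.000619). Atp5o, of the ATP synthase stalk, gave 11498, 10533 and 11934 in KO and 7148, 6940.5, 6414 and 7448 in WT, and Cyc1, cytochrome c1 of complex III, gave 8317, 8141 and 9868 in KO and 5672, 5380.3, 3912 and 4776 in WT. In untreated cells the Cycs means were 935 in KO and 916 in WT, near the WT values after 5-FU. The KO mean lay above both untreated means in all 25 genes, while the WT mean lay above both in 13 and below both in 8. Of the 13 mitochondrially encoded protein genes mt-Nd1 rose (log2 0.82), mt-Co1 fell (log2 -0.34) and 11 did not pass (median 0.09); the first call was lost without KO A5 and the second without KO A6, A8 or WT A3. The nuclear count of 25 was 11 to 20 without single libraries, moved most by KO A5, A6, A8, WT A3 and A4, and 11 genes hold in every repeat.

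Of 22 tricarboxylic acid cycle genes 9 rose and 13 did not pass (median 0.45). Mdh2, mitochondrial malate dehydrogenase, gave 18051, 16937 and 20991 in KO and 12457, 9557, 7605 and 8600.1 in WT (log2 0.95, limma adjusted p = 0.000731). Idh3a, a subunit of isocitrate dehydrogenase, gave 6068, 6627 and 8298 in KO and 3279, 3765, 3053 and 3215 in WT, and Cs, citrate synthase, gave 4614, 4286 and 5822 in KO and 2331, 3606, 1909.6 and 3166 in WT. The count was 3 to 6 without single libraries, moved by over 1.5 times without KO A5, A6, A8, WT A4 or D4, and Mdh2 and Idh3a hold in every repeat, while the Cs call was lost without KO A8. In glycolysis 6 of 25 genes rose and 1 fell, each of the 6 in every repeat: Pkm, Pgam1, Tpi1, Pgk1, Gapdh and Fbp1. Pkm, pyruvate kinase, gave 9685, 11458 and 13026 in KO and 4099.9, 3713, 3639 and 3352 in WT (3.08-fold higher; log2 1.52, limma adjusted p = 8.33e-06). Fbp1, which catalyses the reverse, gluconeogenic step at fructose bisphosphate, gave 501, 485 and 561 in KO and 206, 4.35, 1.90 and 1.33 in WT (log2 1.63, limma adjusted p = 0.00322), with WT A2 above the other WT libraries and below each KO library. Aldoc, a brain-type aldolase, went the other way with 1.34, 34.2 and 1.30 in KO and 103, 184, 259.6 and 165 in WT (log2 -0.99, limma adjusted p = 0.0160), and its untreated means were 936 in KO and 1028 in WT. The Aldoc call was lost without KO A5 or A8. Gapdh and Pgam1 have many processed copies in the mouse genome, so their counts are uncertain.

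The serine and one-carbon folate pathway, which feeds carbon units into purines and thymidylate, had 13 of 19 members up, 6 not passing and the highest median of the lists described, 0.80. All 3 enzymes that make serine from a glycolytic intermediate rose, Phgdh, Psat1 and Psph. Phgdh, the first, gave 9599, 10708 and 12453 in KO and 4034, 3979, 2134 and 3476 in WT (3.21-fold higher; log2 1.60, limma adjusted p = 6.44e-05). Psat1, the second, gave 6634, 6774 and 8447 in KO and 2879, 3858, 2630.4 and 2982 in WT (2.36-fold higher). Psph, the third, gave 1466, 1597 and 1740.5 in KO and 609, 727, 1149.7 and 668 in WT (log2 0.80). Of the folate enzymes, cytosolic Shmt1 gave 1044, 1277 and 1384 in KO and 471, 168, 141 and 228 in WT (4.90-fold higher), and the mitochondrial Mthfd2 gave 1092, 1014 and 1355 in KO and 207, 335, 301 and 273 in WT (log2 1.31). WT values of Phgdh after 5-FU were below the untreated means of 10913 in KO and 8562 in WT, and the KO values were close to them. Tyms, thymidylate synthase, the enzyme that 5-FU blocks, gave 2989.7, 2815 and 2797 in KO and 2259, 1465, 824 and 1698 in WT (log2 0.80, limma adjusted p = 0.0300). Of the 13 genes 7 hold in every repeat, and 7 to 12 were called without single libraries, moved most by KO A5, A6, A8 and WT D4. The Psph and Tyms calls were lost with A3 and D4 averaged (limma adjusted p = 0.0666 and 0.0558).

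Of 34 purine and pyrimidine genes 15 rose and 1 fell (median 0.59). In pyrimidine synthesis Cad, which starts the pathway, gave 1553, 1450.3 and 1429.6 in KO and 1647, 269, 274 and 296 in WT (log2 1.16, limma adjusted p = 0.0336), with WT A2 above all KO libraries, and Umps, which ends it at UMP, gave 4241, 4127 and 4468 in KO and 2211, 2715, 1370.4 and 2288 in WT (log2 0.91, limma adjusted p = 0.00550). Both subunits of ribonucleotide reductase, which makes deoxynucleotides, were up: Rrm2 gave 4504, 4766 and 6235 in KO and 2075, 1579, 1432 and 1258 in WT (3.26-fold higher) and Rrm1 1.95-fold higher. Nme1, a nucleoside diphosphate kinase with the promoter printed above, gave 8414, 7839 and 8420.1 in KO and 3808, 2896, 3125 and 3264 in WT (2.51-fold higher; log2 1.24, limma adjusted p = 2.87e-05). The calls of the thymidine kinases had opposite signs: cytosolic Tk1, tied to S phase, gave 4973, 6188 and 6397 in KO and 3042, 3162, 1731 and 2824 in WT (log2 1.04, limma adjusted p = 0.0102), and mitochondrial Tk2 gave 145, 391 and 105 in KO and 284, 1434, 726 and 1132 in WT (log2 -1.17, limma adjusted p = 0.0462). The groups overlapped in Tk2, and its call was lost with A3 and D4 averaged (limma adjusted p = 0.134). So was the Cad call (0.099), and the Tk1 call was lost without KO A6 or A8. In purine synthesis Gart, Pfas, Adsl and Ppat rose, and Paics, Atic and Gmps did not pass; the Ppat call was lost with the pair averaged (limma adjusted p = 0.112) and the Adsl call without KO A8. Of the 16 called genes 7 hold in every repeat, and the higher count fell to 7 at the lowest, moved most without KO A6 and A8.

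Translation genes were higher in part. Of 29 initiation, elongation and release factors 12 rose and 17 did not pass (median 0.40). The 3 subunits of eIF2, which brings the initiator tRNA to the ribosome, all rose. Eif2s1 gave 10379.9, 11460.0 and 12981 in KO and 4712, 6378, 5072 and 5189 in WT (2.17-fold higher; log2 1.07, limma adjusted p = 0.000213) and Eif2s3x gave 3452, 3042 and 2049 in KO and 1009, 952, 861 and 793 in WT (log2 1.32, limma adjusted p = 0.000852). Eif5a, a factor that carries hypusine, gave 21211, 22894 and 29469.8 in KO and 13818, 13410.2, 10607 and 13072 in WT (1.93-fold higher). Of 30 aminoacyl-tRNA synthetases 12 rose and 18 did not pass (median 0.47). Wars, for tryptophan, gave 1224, 1434 and 1411 in KO and 434, 336, 328 and 277 in WT (3.95-fold higher), and Nars, for asparagine, gave 3707, 3942 and 5106 in KO and 2134, 2247, 2465 and 2205 in WT (1.88-fold higher). These 2 synthetases hold in every repeat, and the synthetase count was 6 with the pair averaged and 2 to 10 without single libraries, moved most by KO A5, A6, A8, WT A4 and D4. Of 48 ribosome biogenesis genes 14 rose and 34 did not pass. Nucleolin (Ncl) gave 13626, 14422 and 16472 in KO and 7889.6, 6748, 7239 and 7064 in WT, the nucleolar protein gene Npm1 28174, 30260.1 and 29654 in KO and 15099, 15182, 15298 and 16130.1 in WT, and Mrto4, an assembly factor of the large subunit, 1993, 2026 and 2139.8 in KO and 554, 327, 351 and 329 in WT, with the KO libraries above the WT libraries in all 3. The ribosome biogenesis count was 6 to 15 without single libraries, moved by over 1.5 times without KO A5, A6, A8 or WT A3.

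Of 49 cytosolic ribosomal protein genes 8 fell and 3 rose (median -0.22), against 5.5% lower and 5.36% higher over all genes tested. The higher calls are near the share over all genes. Rps19, of the small subunit, gave 17718, 17966 and 16459 in KO and 26512, 23824, 28590.4 and 32353 in WT (log2 -0.66, limma adjusted p = 0.00207). Rpl32, of the large subunit, gave 31569.7, 36279.6 and 39660.4 in KO and 58981, 46219, 63715 and 65154 in WT (log2 -0.69, limma adjusted p = 0.00202). Rpl27 and Rpl5 were among the 3 that went against most of the list, Rpl27 with 3128, 3465 and 4127 in KO and 1607, 962, 1126 and 1008 in WT (log2 1.36, limma adjusted p = 0.000104). With A3 and D4 averaged 11 were lower, and 4 to 13 without single libraries (moved most by KO A5, A6 and WT A3). These genes have many near-identical processed copies, so their single counts are uncertain, as the pseudogenes described further on show.

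Replication genes rose in 20 of 51 members (median 0.63). The count was 11 with A3 and D4 averaged, and 8 to 22 without single libraries, moved by over 1.5 times without KO A5, A6, A8, WT A3, A4 or D4. Hells, a chromatin remodeller of replicating cells, gave 2518, 2453 and 2473 in KO and 868, 504, 710.4 and 494 in WT (3.85-fold higher; log2 1.53, limma adjusted p = 4.81e-05), with the KO libraries within a narrow range. Of 7 MCM genes, all but Mcm10 encoding subunits of the replicative helicase, Mcm2, Mcm4 and Mcm5 rose. Mcm4 was not called with the pair averaged (limma adjusted p = 0.0722), nor Mcm5 without KO A5 or A6. None of 8 polymerase and primase genes passed in limma or in limma-voom. Of these genes 4 (50%) had an unadjusted limma p below 0.05, against 24.83% of all genes tested. All 8 had positive log2 differences, from 0.22 to 0.74 (median 0.50). Their summed counts were 14127 to 15219 in KO and 8568 to 11384 in WT. Of 21 tested G1 cyclins, CDKs and their inhibitors 4 rose, 2 fell and 15 did not pass (median 0.20). Cyclin E1 (Ccne1) gave 705, 917 and 1259 in KO and 116, 56.5, 380.4 and 75.1 in WT (6.12-fold higher), cyclin D1 (Ccnd1) 1314, 1337 and 1324 in KO and 477, 226, 346 and 248 in WT (4.09-fold higher), and Cdk4, the kinase that binds cyclin D1, 8497, 9234 and 11576 in KO and 5703, 5312, 4415 and 5127 in WT (1.90-fold higher). Cdkn2d, which encodes the CDK4 and CDK6 inhibitor p19, gave 1414, 1552 and 1655 in KO and 3531, 4208, 3599 and 4046 in WT (2.50-fold lower; log2 -1.14, limma adjusted p = 0.000389). Cdk6 itself was lower, with 4305, 3977 and 3162 in KO and 7294, 9297, 14257 and 8970.0 in WT (log2 -1.27, limma adjusted p = 0.0142), a call lost without KO A8. Cyclin D2, D3 and E2F1 genes did not pass.

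Mitosis genes were called in 4 of 48, Cdk1, Spc24, Birc5 and Ccna2 (median 0.34), and in 1 at the lowest without single libraries. All were higher in KO, and over all genes tested 5.36% rose and 5.5% fell, so the count is not far from that share. Summed over the list, counts were 124560 to 145010 in KO and 86171 to 102470 in WT. Birc5 and Ccna2 were not called with the pair averaged (limma adjusted p = 0.0655 and 0.0548), nor Spc24 without KO A8. Cdk1, the mitotic kinase, gave 4934, 4796 and 6271 in KO and 2662, 2467, 2498 and 2269 in WT (2.16-fold higher; log2 0.99, limma adjusted p = 0.000940). Birc5, encoding survivin, gave 6388, 6185 and 6537 in KO and 4091, 3688, 3924 and 3792 in WT (log2 0.67, limma adjusted p = 0.0279), and Mki67, the Ki-67 antigen, 7335, 6966 and 5355 in KO and 3996, 5676, 5181 and 5034 in WT (log2 0.37, limma adjusted p = 0.387). The KO and WT libraries overlapped in Mki67, while the untreated means were 2912 in KO and 2514 in WT. Of 22 clustered histone genes 3 fell: the linker histone gene Hist1h1c gave 243, 349 and 299 in KO and 1389, 1906, 1414 and 1957 in WT (5.61-fold lower; log2 -1.68, limma adjusted p = 8.20e-05), and Hist1h2bc gave 1244, 1121 and 1652 in KO and 3658, 4509.6, 3283 and 3975 in WT. Hist1h2ae was the third (limma adjusted p = 0.0451, and 0.0955 with the pair averaged). Many histone transcripts lack a poly(A) tail and are not captured well by these libraries.

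Splicing factors rose in 8 of 39 and fell in 1. The SR proteins, which bind exons and guide splice site choice, had calls of both signs: Srsf1 gave 3973, 3442 and 3039 in KO and 1941, 1570.3, 1849.7 and 1476 in WT (log2 0.89, limma adjusted p = 0.00427) and Srsf5 1259, 1712 and 2262 in KO and 3562, 4017, 4530.5 and 4124 in WT (log2 -1.09, limma adjusted p = 0.00207), while Srsf2, Srsf3 and Srsf7 rose, Srsf2 not with the pair averaged (limma adjusted p = 0.0889). Snrpd1, a core protein of the spliceosome's snRNPs, gave 5712, 6071 and 6033 in KO and 3025, 3365, 2696 and 4236 in WT. Of 32 antioxidant genes 5 rose, 4 of them of the thioredoxin system or peroxiredoxins: Prdx1 gave 9395, 8533 and 10293 in KO and 5732, 5395, 4847 and 4770.3 in WT (1.81-fold higher), Txn1 15730.4, 16544 and 17147 in KO and 10241, 7403, 8229.8 and 9876 in WT (1.84-fold higher), and Txnrd1 and Txn2 had log2 differences of 0.84 and 0.53, both calls lost with the pair averaged (limma adjusted p = 0.0581 and 0.0782). The fifth, glutathione reductase (Gsr), gave 1358, 1519.9 and 1367 in KO and 861, 495, 575 and 480.2 in WT. Splicing calls numbered 4 to 7 and antioxidant calls 3 to 4 when single libraries were left out, both moved by over 1.5 times without KO A8 or WT A3, the first also without KO A6 and the second without KO A5 or WT D4.

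ERK target and feedback genes were not lower as a group in KO: 5 of 26 rose, 1 fell and 20 did not pass (median 0.09). Dusp6, the phosphatase that acts on ERK in the cytoplasm, gave 982, 865 and 1496 in KO and 554, 296, 699.9 and 247 in WT (log2 0.92, limma adjusted p = 0.0279). Dusp4, its nuclear relative, gave 60.5, 57.8 and 50.7 in KO and 0, 0, 0 and 13.3 in WT (log2 0.59, limma adjusted p = 0.0114). The PEA3 factor gene Etv5 gave 775, 375 and 407 in KO and 35.9, 65.2, 231 and 50.5 in WT (log2 1.18, limma adjusted p = 0.00429), and Etv4 gave 73.9, 61.3 and 48.1 in KO and 0, 0, 0 and 0 in WT (log2 0.69, limma adjusted p = 0.00109), where a count of 0 allows up to 3 reads by counting error alone, or a normalized count of 1.99 to 4.35 in these WT libraries. Ier3, encoding an ERK substrate, went down, with 340.0, 202 and 385 in KO and 1878, 1282, 1212 and 1282 in WT (4.58-fold lower; log2 -1.47, limma adjusted p = 0.000302). The KO and WT libraries did not overlap in any of these 5 genes, which was also so in 27% of all genes tested. The Dusp6 call was lost with A3 and D4 averaged. Sprouty genes Spry1, Spry2 and Spry4 and the direct ERK target Egr1 did not pass (limma adjusted p = 0.982, 0.816, 0.121 and 0.792). Jun and Gem were the higher genes among 18 immediate-early genes, and Junb and Zfp36 were 2 of the 3 lower ones: Jun gave 262, 141 and 61.1 in KO and 9.26, 5.79, 16.2 and 39.9 in WT (log2 0.77, limma adjusted p = 0.0437) and Junb 103, 149 and 300.5 in KO and 636, 603, 621 and 599 in WT (log2 -0.98, limma adjusted p = 0.0125). The Jun call was lost with A3 and D4 averaged (limma adjusted p = 0.0806) and without each library except KO A8. Junb was not called without KO A5 or A6, and Zfp36 without KO A5, A6 or WT D4. The lower count of the list was 0 to 3 without single libraries. Id1, an inhibitor of differentiation factors downstream of BMP and TGF-beta signals, gave 1025, 1271 and 1326 in KO and 311, 230.3, 274 and 226 in WT (4.63-fold higher; log2 1.41, limma adjusted p = 0.00524), against untreated means of 116 in KO and 221 in WT.

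Several single genes stood out among those higher in KO. Gem, a small GTPase that binds calcium channel subunits, gave 3879, 7355 and 8658 in KO and 2013, 5.79, 83.7 and 0 in WT (log2 3.85, limma adjusted p = 0.000532), from near 0 in WT A3 and D4 to 2013 in A2. Emb, encoding embigin, an escort protein of monocarboxylate transporters, gave 2471, 5400.4 and 3508 in KO and 859.8, 73.9, 82.7 and 54.5 in WT (log2 3.03, limma adjusted p = 4.29e-05). Its untreated means were 4698 in KO and 7342 in WT, so the WT libraries after 5-FU lay below the means of the other groups. Lcp1, the actin-bundling protein L-plastin, was likewise lowest in WT after 5-FU, with 5869, 6214 and 6873 in KO and 2263, 743, 1313 and 713 in WT and untreated means of 5949 in KO and 6133 in WT. Gch1, which starts tetrahydrobiopterin synthesis, gave 2488, 2479.7 and 4052 in KO and 742, 459, 732 and 409.8 in WT (5.13-fold higher). Nek6, a mitotic kinase, gave 418, 582 and 341 in KO and 103, 1.45, 0 and 0.664 in WT (log2 1.63, limma adjusted p = 0.00445). Ranbp1, a partner of the nuclear transport GTPase Ran, gave 9505, 8752 and 7474 in KO and 2908, 3128, 1457 and 3568 in WT (3.10-fold higher), and Nup133, of the nuclear pore scaffold, 1467, 1351 and 1354 in KO and 304, 275, 313 and 225 in WT (4.98-fold higher). WT A2 was the highest WT library in Gem, Emb, Lcp1 and Nek6, and each KO library was above it.

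**Figure D4:**
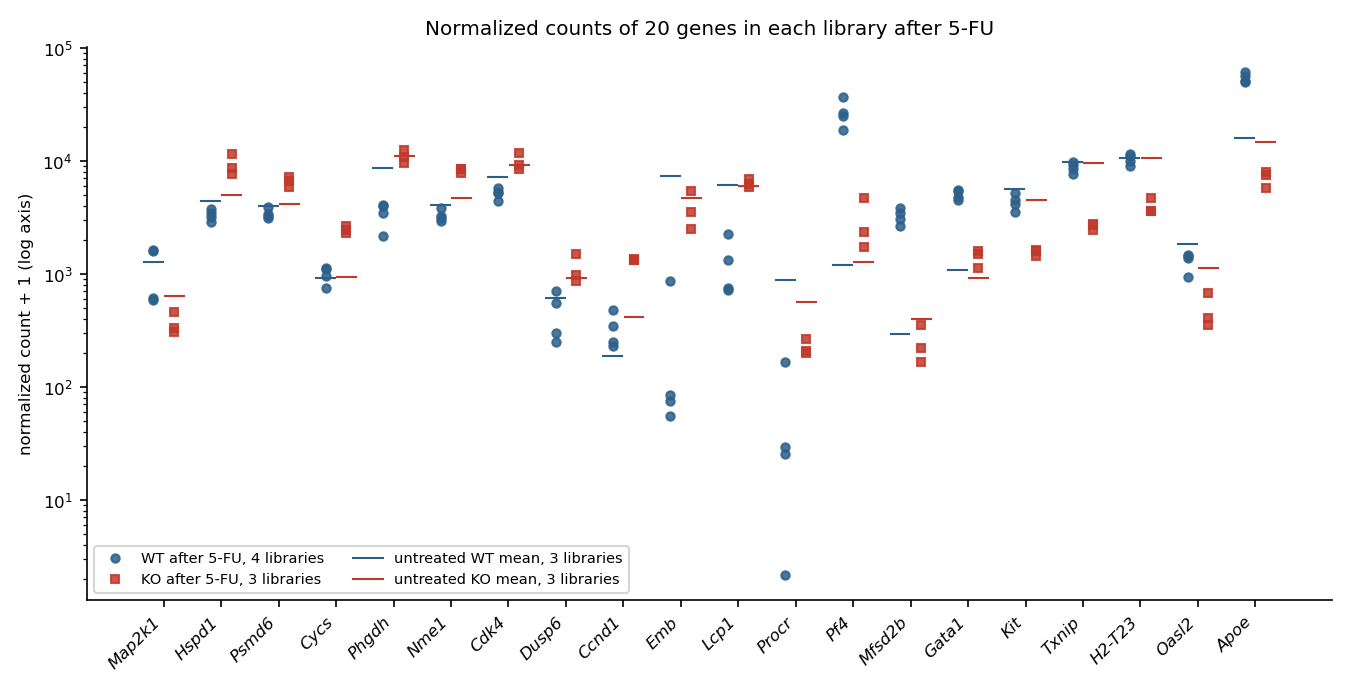
Normalized counts (plus 1, log axis) of 20 genes in the 4 WT libraries (blue circles) and 3 KO libraries (red squares) after 5-FU, with short lines for the means of the 3 untreated WT (blue) and 3 untreated KO (red) libraries. Emb and Lcp1 in WT lie below the untreated lines, Pf4 and Mfsd2b in WT lie above them, and Txnip, Kit and H2-T23 in KO lie below them.

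Platelet and megakaryocyte transcripts were lower in KO: 22 of 27 fell, 5 did not pass and the median was -1.36, and 18 hold in every repeat. Megakaryocytes shed platelets, and part of the HSC pool carries megakaryocyte transcripts. Among surface receptors, Itga2b (integrin alpha-IIb, CD41) gave 638, 709.8 and 533 in KO and 2532, 4436, 2281 and 4273 in WT (5.39-fold lower; log2 -1.88, limma adjusted p = 7.78e-05) and its partner Itgb3 gave 159.9, 18.9 and 161 in KO and 1079.7, 732, 945 and 713 in WT (7.65-fold lower). All 4 genes of the von Willebrand factor receptor fell: Gp1ba (6.03-fold lower), Gp1bb (11.4-fold lower), Gp5 (2.94-fold lower) and Gp9 (2.66-fold lower). Of granule proteins, Pf4 gave 4680.0, 2326 and 1725 in KO and 18815, 26623, 24694 and 36813 in WT (9.19-fold lower), Vwf 438, 285 and 233 in KO and 994, 2279, 1219 and 1401 in WT (4.62-fold lower) and Selp, P-selectin, 718, 874 and 1474 in KO and 2094, 3342, 3985 and 3233 in WT (3.10-fold lower). F2rl2, the thrombin receptor PAR3, gave 547, 298 and 477 in KO and 2663, 3953, 2964 and 3775 in WT (7.57-fold lower), with untreated means of 283 in KO and 52.7 in WT. Summed over the list, counts were 27407 to 30845 in KO and 76178 to 122940 in WT after 5-FU, and 32325 to 40602 over the 6 untreated libraries, so WT lay above untreated cells and KO below. Pf4 in KO was nevertheless above its untreated means of 1272 in KO and 1189 in WT. The interaction test passed in 18 of the 27.

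Erythroid genes fell in 10 of 20, with 10 not passing (median -0.49). Mfsd2b, which exports sphingosine 1-phosphate, gave 219, 165 and 349.9 in KO and 2618, 3819, 3051 and 3456 in WT (13.2-fold lower; log2 -2.66, limma adjusted p = 4.35e-06). Tspo2, a porphyrin-binding protein of red cell precursors, gave 0, 0 and 0 in KO and 235, 259, 295 and 272 in WT. Icam4, a red cell adhesion molecule, gave 479.7, 606 and 657 in KO and 1838, 2683, 2613 and 2742 in WT (4.25-fold lower) and Car1, carbonic anhydrase 1, 0, 0 and 0 in KO and 84.5, 101, 112 and 135 in WT. Both genes were at 0 in all KO libraries, where 3 reads correspond to a normalized count of 3.54 to 4.03. The KO libraries lay below the WT libraries in each of the 4 genes. Hba-a2 was called lower, but it shares near-identical sequence with Hba-a1, which was not, so the split is uncertain; its call was lost with the pair averaged (limma adjusted p = 0.0603). Of 14 genes of heme synthesis and turnover 13 did not pass. The other one, Hmox2, a heme oxygenase that degrades heme, was called higher, and the call was lost whichever library was left out.

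Transcription factors of these lineages fell in 7 of 19, among them Fli1, Runx1, Gata1, Klf1, Meis1 and Nfe2; the Meis1 call was lost without KO A6 and the Nfe2 call without KO A5 or A6. Gata1, the main factor of red cell and platelet formation, gave 1505, 1117 and 1588 in KO and 5340.4, 5524, 4441 and 4740.4 in WT (3.57-fold lower; log2 -1.61, limma adjusted p = 0.00378). Klf1, of globin expression, gave 374, 187 and 498 in KO and 1965, 2421, 848 and 2356 in WT (5.37-fold lower). Fli1, an ETS factor of megakaryocytes, gave 1193, 1027 and 762 in KO and 3640.5, 2541, 2395 and 3144 in WT (2.95-fold lower). In all 3 the KO libraries were lower without overlap. Gata2, Tal1, Lmo2, Gfi1b and Myb, factors shared with stem and progenitor cells, did not pass. The lower count was 5 to 7 over all left-out libraries.

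Cytokine receptors were lower in 7 of 34 genes of receptors and JAK-STAT signalling, and 1 was higher (median -0.19). Kit, the stem cell factor receptor, gave 1572, 1606 and 1428 in KO and 3521, 4121, 5161 and 4496 in WT (2.82-fold lower; log2 -1.29, limma adjusted p = 0.000599). Csf2rb, the common beta chain of the IL-3, IL-5 and GM-CSF receptors, gave 117, 111 and 78.0 in KO and 978, 939, 964 and 898 in WT (9.27-fold lower), and its mouse copy Csf2rb2 gave 117, 59.0 and 2.60 in KO and 1062, 753, 449 and 703 in WT (12.5-fold lower). These 2 genes are close copies whose reads can be split between them. Csf2ra and Stat5b fell as well, Csf2ra not without KO A5 and Stat5b not without KO A5 or A8. Of the receptor chains for interferon gamma, Ifngr1 gave 1650.0, 1914 and 2315 in KO and 3160.3, 5037, 4026 and 4065 in WT (log2 -0.92, limma adjusted p = 0.0105) and Ifngr2 304, 456 and 368 in KO and 71.7, 46.4, 198 and 35.2 in WT (log2 0.96, limma adjusted p = 0.0329). The Ifngr1 call was lost without KO A5. The Ifngr2 call was lost with the pair averaged (limma adjusted p = 0.0928) and without KO A5, A6, A8, WT A3 or D4. Kit signals through the RAS and ERK relay, among other routes. Without KO A5 the lower count was 4.

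The HSC marker list was lower in 11 of 42 genes and higher in 1, Procr (median -0.13). Slamf1 (CD150), used to sort HSCs, gave 1252, 1624 and 1951 in KO and 3358, 4936, 4196 and 4318 in WT (2.61-fold lower; log2 -1.21, limma adjusted p = 0.00209). Mllt3, a self-renewal factor, gave 481, 301 and 514 in KO and 1259, 2298, 2426 and 1852 in WT (4.54-fold lower), and Pdzk1ip1, whose promoter drives an HSC reporter, 634, 915 and 1149.9 in KO and 3548, 4209.8, 3383 and 3799.9 in WT (4.15-fold lower). Procr (EPCR), another sorting marker, gave 207, 265 and 196 in KO and 1.16, 24.6, 165 and 28.6 in WT (log2 0.84, limma adjusted p = 0.0395), against untreated means of 562 in KO and 880.0 in WT; its call was lost with A3 and D4 averaged (limma adjusted p = 0.093). Hlf, Mecom, Fgd5, Hoxb5, Hoxa9 and Cd34 did not pass. The list sum was 37544 to 38423 in KO and 54828 to 67900 in WT after 5-FU, and 77955 to 92605 in untreated cells. Without KO A6 the lower count was 7. Of 20 genes linked to platelet-biased or aged HSCs 7 fell, Mllt3, Itgb3, Vwf, Selp, Slamf1, Ehd3 and Clu, and all 7 hold in every repeat; Procr was the 1 higher member. Vwf, Selp and Itgb3 are also in the megakaryocyte list, and Slamf1 and Mllt3 in the HSC marker list.

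Genes linked to quiescence were lower in 9 of 28 (median -0.20). Txnip, which restrains thioredoxin and glucose uptake, gave 2440.1, 2673 and 2749 in KO and 7647, 9705, 9197 and 8465 in WT (3.34-fold lower; log2 -1.60, limma adjusted p = 9.74e-07). Ypel3, a growth-suppressing zinc finger protein, gave 175, 224 and 186 in KO and 1956, 2331, 3832 and 2962 in WT (14.2-fold lower), and Tsc22d3 (GILZ), a FoxO and glucocorticoid target, 1053, 922 and 1318 in KO and 2928, 5256, 5717 and 4705 in WT (4.24-fold lower). WT values of Txnip and Tsc22d3 lay near the untreated means (9539 in KO and 9804 in WT for Txnip), and the KO values lay below. The FoxO genes Foxo1 and Foxo3 and the CDK inhibitor genes Cdkn1a, Cdkn1b and Cdkn1c did not pass. The count was 6 with the pair averaged and 4 to 10 without single libraries (moved by KO A5, A6, A8 and WT D4).

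Lysosome and autophagy genes fell in 11 of 42 and rose in 2 (median -0.36). The ATG8 family, whose products coat autophagosomes, was lower in 4 members: Gabarapl1 gave 1238, 1374 and 1531 in KO and 2125, 3764, 2686 and 4022 in WT (2.28-fold lower), and Map1lc3a, Map1lc3b and Gabarap had log2 differences of -0.87, -0.83 and -0.65. The Map1lc3b call was lost without KO A6 or WT A3, and the Gabarap call without KO A5, A6, A8, WT A4 or D4. The mitophagy receptor gene Bnip3l gave 1333, 1362 and 1733 in KO and 3336, 3035, 3712 and 3119 in WT (2.24-fold lower). Of lysosomal proteases, Ctsd and Ctsa were called lower and Ctss and Ctsh higher: Ctss gave 382, 172 and 256 in KO and 16.2, 1.45, 33.3 and 0 in WT (log2 1.25, limma adjusted p = 0.00253). The Ctsd and Ctsh calls were lost with the pair averaged (limma adjusted p = 0.0722 and 0.114), and the Ctsa call without KO A5. Cholesterol transport fell in 6 of 16. Apoe, which carries lipid out of cells, gave 7461, 5734 and 7878 in KO and 49903, 60703, 50449 and 55681 in WT (7.71-fold lower; log2 -2.89, limma adjusted p = 5.99e-09), the 4 WT libraries lying above and the 3 KO libraries below the untreated means of 14699.6 in KO and 15741 in WT. Abcg1, which exports cholesterol, gave 985, 1125 and 914 in KO and 2386, 3693, 4901 and 3551 in WT (3.60-fold lower). The counts fell to 5 for the lysosome list (moved by over 1.5 times without KO A5, A6 or WT A3) and 2 for cholesterol transport (without KO A5 or A6).

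Immune genes were lower in part. In the class I antigen presentation list 5 of 20 fell: B2m, the light chain of class I molecules, gave 56195, 56179 and 58160.5 in KO and 78559.7, 80619, 86745 and 110048 in WT (log2 -0.63, limma adjusted p = 0.00515), H2-K1 20298, 19907 and 23333 in KO and 33933, 38998, 33559 and 38619 in WT (1.71-fold lower) and H2-T23 (Qa-1) 3577, 3603 and 4663 in KO and 9894, 11078, 9012 and 11552 in WT (2.63-fold lower; log2 -1.32, limma adjusted p = 4.94e-05). In all 5 the KO mean lay below both untreated means, and the WT mean did so in 4. Without KO A5 the count was 3. H2 genes are close copies of one another, so reads may be shared among them. Peptide transporters Tap1 and Tap2 did not pass. Of 44 interferon-response genes 7 fell (median -0.39): Oasl2, an OAS-like antiviral gene, gave 403, 350.2 and 669 in KO and 1431, 1472, 927 and 1368 in WT (log2 -1.03, limma adjusted p = 0.00154) and Rtp4 650.3, 345 and 743 in KO and 1574, 2083, 1809.7 and 1858 in WT (log2 -1.27, limma adjusted p = 0.00163), while Irf7 and Isg15 did not pass. Without WT A2 the interferon count was 11. Of 21 NF-kB genes 5 fell and 1 rose. Nfkbia, the inhibitor that NF-kB induces, gave 1516, 1362 and 2254 in KO and 4007, 5201, 5101 and 4681 in WT (2.78-fold lower; log2 -1.31, limma adjusted p = 0.000271), and Il1b 16.1, 8.25 and 0 in KO and 59.0, 307, 482 and 317 in WT (log2 -1.28, limma adjusted p = 0.00154). Tnf was the higher one, with 112, 124 and 57.2 in KO and 0, 0, 0 and 0 in WT (log2 0.88, limma adjusted p = 0.0156), and its call was lost without KO A5 or A6. With the pair averaged the lower NF-kB count was 2, as it was at the lowest without single libraries (moved by over 1.5 times without each of them except A4).

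Adhesion molecules of the niche fell in 5 of 30, with Emb the higher one. Esam, an endothelial adhesion molecule also used as an HSC marker, gave 1767, 2059 and 2028 in KO and 3520.1, 6290.0, 5137 and 5503 in WT (2.62-fold lower), Plxnc1, a semaphorin receptor, 2255, 2604 and 1554 in KO and 5198, 5851, 4493 and 5097 in WT (2.41-fold lower), and S1pr1, the sphingosine 1-phosphate receptor for egress, a log2 difference of -1.16. Cxcr4, Itga4, Itgb1 and Vcam1 did not pass. The adhesion counts moved without KO A5 or A6, to 3 at the lowest. In the actin cytoskeleton list 4 of 39 rose, 2 fell and 33 did not pass (median 0.04), against 5.36% higher and 5.5% lower over all genes tested. Zyx, zyxin of focal adhesions, gave 2335, 2941 and 3499 in KO and 5454, 6686, 7005 and 6772 in WT (2.22-fold lower; log2 -1.06, limma adjusted p = 0.00124), and Coro1a, coronin 1A, 10404, 11204 and 14269 in KO and 8211, 5718, 5258 and 5644 in WT in the other direction, and both hold in every repeat. Of 17 integrated stress response genes 2 rose and 3 fell. Ddit3 (CHOP) gave 161, 105 and 254 in KO and 751, 1184, 821 and 1209.5 in WT (log2 -1.47, limma adjusted p = 0.000220) and holds in every repeat. Asns, asparagine synthetase, gave 2251, 2556 and 3504 in KO and 603, 1217, 2454 and 1019 in WT (log2 0.99, limma adjusted p = 0.0223), with WT A4 within the KO range, and its call was lost with the pair averaged (limma adjusted p = 0.0544).

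The remaining lists are given by their counts. In limma none of 11 MYC and MAX network genes, 14 BCL2 family genes and 8 imprinted growth genes passed, nor in limma-voom, and 4, 3 and 1 had an unadjusted limma p below 0.05, against 24.83% of all genes tested. Mycn was the closest of the first, with 1678, 2098 and 2045 in KO and 1113, 1113, 814 and 1400.1 in WT (log2 0.66, limma adjusted p = 0.0711), and Bmf, a BH3-only killer gene, of the second, with 0, 0 and 0 in KO and 25.5, 88.4, 0.951 and 65.1 in WT (log2 -0.49, limma adjusted p = 0.0637). Of 27 PI3K, AKT and mTOR genes Rictor fell, with 399, 439.8 and 447 in KO and 719, 1224, 1052 and 1126 in WT (log2 -0.83, limma adjusted p = 0.0181), a call lost with the pair averaged (limma adjusted p = 0.058). Of 40 chromatin regulators 3 rose, Eed, Dnmt3b and Idh2, and none of them with the pair averaged. Of 49 DNA repair genes 6 rose, among them Exo1, Brip1, Msh6, Xrcc5 and Topbp1, of 29 p53 targets 3 rose and 2 fell, of 24 sterol synthesis genes 1 rose and 2 fell, and of 19 amino acid transporters Slc7a5 rose and Slc7a7 fell. Over all genes tested 5.36% rose and 5.5% fell. Brip1, Msh6, Xrcc5 and Slc7a5 were not called with the pair averaged (limma adjusted p = 0.0587, 0.0537, 0.0556 and 0.096). Each of these counts moved by over 1.5 times without at least 1 library: the repair count was 1 at the lowest. Of 12 MHC class II genes 1 rose and 2 fell (median 0.11), and of 14 multipotent progenitor and lymphoid priming genes 2 fell. All calls of these 2 lists hold in every repeat. Of 23 TGF-beta, SMAD and Id genes 2 rose and 1 fell, and with the pair averaged 1 rose and 0 fell. None of 4 sex-linked genes passed.

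Markers of other cells that a sort could hold were counted too. Neutrophil genes fell in 5 of 11: Lyz2, lysozyme, gave 7866, 8772 and 8705 in KO and 15447, 16142, 17690.2 and 14646 in WT (1.89-fold lower; log2 -0.89, limma adjusted p = 0.000118) and S100a8 20.2, 29.5 and 9.11 in KO and 639, 196, 804 and 419.8 in WT, and their sum was 10354 to 11422 in KO, 20469 to 23398 in WT and 19987 to 25430 in untreated cells. Mast cell and basophil genes fell in 2 of 6, Fcer1a with 103, 0 and 1.30 in KO and 1559.9, 1719.5, 1254 and 1550.2 in WT and Srgn, which other blood cells also express, while the histidine decarboxylase gene Hdc was near 0 in WT (17.5, 28.3 and 7.80 in KO and 0, 1.45, 0 and 0.664 in WT). Monocyte genes rose in 2 of 13, Ctss and Irf8, the second not without KO A6 or WT D4, with sums of 987 to 1602 in KO and 260.4 to 1104 in WT. A single gene each fell in the B cell list (Cd79b, of 6) and the T and natural killer list (Nkg7, of 5), and 2 of 8 endothelial genes fell, Vwf and Kdr. No neutrophil marker was at 0 in all 4 WT libraries, 2 were at 0 in all 3 KO libraries, and Vwf is also in the platelet list. The B cell, T cell and endothelial calls other than Vwf were each lost without at least 1 library. The part of such cells in the results was not tested.

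The gene with the largest difference was Gm29216 (chromosome 1, 24615706 to 24616197, minus strand), annotated as an unprocessed pseudogene. It gave 24.2, 20.04 and 139 in KO and 29728, 31018, 50296 and 41847 in WT (log2 -6.84, limma adjusted p = 3.17e-11), with untreated means of 20120.1 in KO and 24244 in WT. Its annotated transcript of 492 bases equals the end of mt-Co1, a mitochondrial cytochrome oxidase gene, in all but 6 bases, which lie within the first 13, so its last 479 bases are identical to mt-Co1 and short reads from them cannot be placed. Gm29216 took 0.00809% to 0.0534% of the summed counts of both genes in the KO libraries and 8.14% to 13.1% in WT after 5-FU, and 3.44% to 7.86% over the 6 untreated libraries. Counts of mt-Co1 were 288034, 247828 and 260582 in KO and 316809, 350082, 334604 and 340016 in WT (log2 -0.34, limma adjusted p = 0.0211). Summed over both genes, counts were 247848 to 288058 in KO, 346537 to 384899 in WT after 5-FU and 330029 to 376551 in untreated cells. The 3 KO libraries after 5-FU are set apart from the other 10 both in the share of Gm29216 and in this sum. The cause was not tested.

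**Figure D5:**
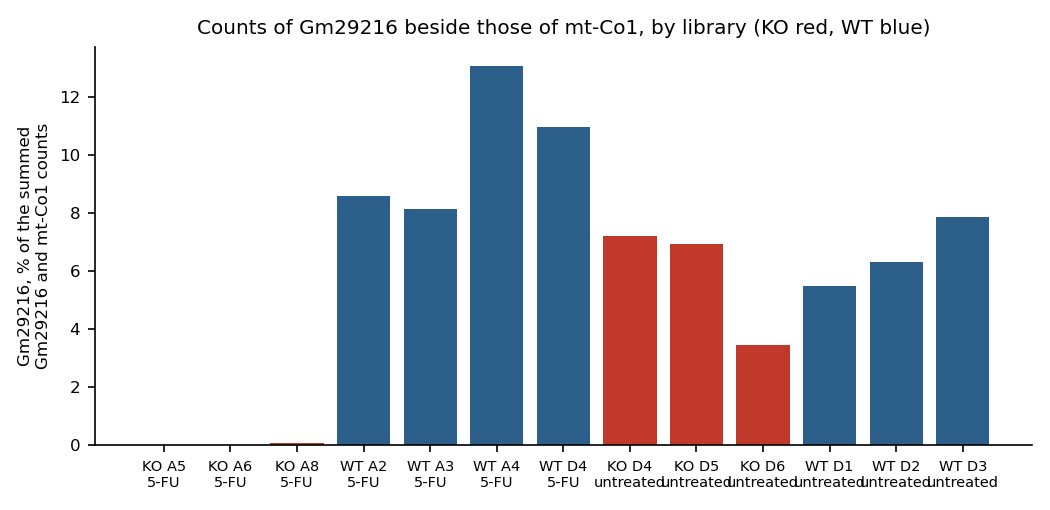
Counts of the pseudogene Gm29216 as a percentage of the summed Gm29216 and mt-Co1 counts in each of the 13 libraries, KO in red and WT in blue. The 3 KO libraries after 5-FU are at or below 0.0534% and WT after 5-FU lies between 8.14% and 13.1%.

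Other near-identical copies moved with large differences too. Of 677 pseudogenes tested 36 were called higher and 26 lower (9.16%, against 10.9% of all genes), and in the median 83.9% of a pseudogene's 31-base words were also found in transcripts of another gene. Rps27a-ps2, with 100% of its words shared, gave 532, 375 and 2163 in KO and 6432, 3909.9, 5539 and 11193 in WT (log2 -2.51, limma adjusted p = 0.000215), while Rps27a, its nearest tested gene, had a log2 difference of 0.03. Gm12191, a copy of Rpl30, gave 251, 401 and 650.4 in KO and 3087, 2609, 3829 and 8821 in WT (log2 -2.56, limma adjusted p = 4.62e-05), and its nearest tested copy Rpl30-ps9 had -0.18. Gm10123 and its parent Ppia, a cyclophilin, had log2 differences of 0.62 and 0.63. Rps27rt, a retrocopy of Rps27, gave 9559, 11381 and 11629 in KO and 24406, 19729, 26349.9 and 42213 in WT. Pseudogenes as a class took 5.56% to 5.79% of the reads in KO and 5.60% to 7.12% in WT. The counting of reads with several placements is not given in the sources used here, so the values of these genes, and of single ribosomal protein genes, are uncertain. Other genes with large differences were Clca3a1, of a family of chloride channel regulators, and Ackr1. Clca3a1 gave 266, 298 and 55.9 in KO and 4399.6, 6771, 5057 and 6078 in WT (27.0-fold lower; log2 -3.54, limma adjusted p = 6.27e-08), and Ackr1, an atypical chemokine receptor of erythroid cells, gave 65.8, 81.4 and 109 in KO and 1510.1, 1743, 2125 and 1574 in WT (log2 -2.47, limma adjusted p = 2.87e-05). Plac8, a lymphoid and myeloid progenitor gene, gave 1025, 1089.5 and 645 in KO and 4336, 8456, 12283 and 8909.6 in WT (9.24-fold lower).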

How the data were processed

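RNA of 100 sorted HSCs per library was read by Smart-seq2. Per the submitters' processing notes Trimmomatic, Bowtie 1.1.1, DESeq2 and build mm10 were used; not given in the sources used here are the counting tool, annotation and strand setting. The authors deposited variance-stabilized log2 values of 13201 genes. Whole reads and size factors were recovered from them in all 13 libraries (100% of values whole within 0.1 reads). Of these genes 13069 had a symbol in GENCODE M21 (GRCm38).

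The filter kept 12846 genes that reached a normalized count of 10 in 3 or more libraries. They were tested on the deposited log2 values with limma 3.58.1 (R 4.3.3), 1 mean per group over all 13 libraries, variance trend, Benjamini-Hochberg adjustment and a threshold of 0.05. The interaction test compares the genotype difference after 5-FU with that in untreated cells. Single values over libraries were compared by exact permutation (Python 3.11.15, scipy 1.17.1). Alternatives left out each library, averaged WT A3 and D4, and changed the filter, scaling, pseudocount (1 and 5), variance model, count model (limma-voom on the recovered reads), year term and threshold. On simulated counts with 200 changed genes among 12846, the KO against WT test called 81 genes, 4 of them falsely, and recovered 24% of 2-fold and 53% of 4-fold changes. The simulated libraries were drawn independently, with no near copies such as WT A3 and D4, and with fewer changed genes than were called here. These rates therefore do not measure the errors of the real comparison.

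The comparison and the gene lists were chosen with earlier results of these data known. Genes were named by rule: the MEK and ERK relay, the largest log2 or count differences among genes that hold in every repeat, the 3 smallest p-values of each list with members that went against it, and the largest interactions. Other genes, given for their role, were chosen after their values were seen.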

Additional observations from a re-analysis of the deposited data

Results flagged for a closer look

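In 4 of 48 genes checked, WT A2 stood apart from the other 3 WT libraries after 5-FU by more than Dixon's 95% limit, which chance passes in about 1 in 20 groups of independent values. WT A3 and D4 are near copies, so that rate does not hold here. Normalized counts of WT A2 were 859.8 for Emb, 206 for Fbp1, 554 for Mrto4 and 103 for Nek6, the highest WT value in each and below every KO library. The last point follows from how these genes were chosen, since they hold in every repeat.

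The genotype difference after 5-FU differed from that in untreated cells by the limma interaction test in 10 named genes, given as log2 differences of differences. It was more positive after 5-FU for Gem (4.25), Emb (3.63), Fbp1 (3.49), Hsdl1 (2.27) and Lcp1 (2.19). It was more negative for Gm29216 (-6.53), Clca3a1 (-3.72), F2rl2 (-3.15), Pf4 (-3.07) and Mfsd2b (-2.97). The untreated libraries and WT D4 were acquired in 2015 and the other libraries after 5-FU in 2016. With year as a term 199 genes passed the interaction test, against 365 without. The year term is fitted by WT D4 alone, and leaving out WT D4 gave 198. It therefore does not adjust for year between untreated and treated cells. Reads of Gm29216 and mt-Co1 cannot be told apart over most of the pseudogene.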

How the results depend on the processing

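Over 48 named genes and their alternatives, 996 of 1008 values kept direction and call, 12 kept direction and lost the call (11 of them Map2k1, at log2 -0.78 to -1.44, and Nek6 at log2 7.25 with limma-voom), and none reversed. These genes other than Map2k1 were chosen for being called in the repeats, so the tally is set by that choice, and it leaves out Rasgrp2, Dusp6, Jun, Tk2, Procr, Rictor and other named genes whose lost calls are given with their values. The 1395 calls between KO and WT (689 higher, 706 lower) became 913 (444 and 469) with WT A3 and D4 averaged, 881 (434 and 447) with acquisition year as a term, 5611 (2697 and 2914) with library weights, 588 (280 and 308) at an adjusted p of 0.01 and 2066 (998 and 1068) at 0.1. With limma-voom 965 were called, 602 higher and 363 lower, a shift of the split toward higher genes. With single libraries left out the counts were 694 to 1569 (325 to 772 higher, 351 to 797 lower). Without WT D4, the 1 library of another year, they were 876. The year term is fitted by WT D4 alone, so its 881 calls are nearly this same alternative. Restricted to the 7 libraries after 5-FU they were 1846, and 1172 with the pair averaged too, an alternative chosen after seeing the data.

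The 365 interaction calls (134 positive, 231 negative) became 237 (79 positive) with the pair averaged, 199 (64 and 135) with the year term, 864 (367 and 497) with library weights, 66 (15 and 51) at an adjusted p of 0.01 and 676 (271 and 405) at 0.1. Without a variance trend 80 were positive. With single libraries left out they were 140 to 476 (45 to 187 positive, 95 to 289 negative). The cause of these changes was not tested. Averaging or leaving out a library leaves fewer samples, but the counts did not always fall. Without WT A2 the interaction calls were 476 and the KO against WT calls 1569, both above the counts with all libraries. Of 2352 counts of called list members 469 moved by over 1.5 times. No paired analysis was possible because the KO and WT libraries after 5-FU share no replicate labels. Few reads limit the lowest genes: 3 reads correspond to a normalized count of 1.99 to 4.35 in these libraries.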
